A study of Mus musculus with 6 samples.

Results

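Cell cycle and DNA replication genes were examined in stimulated CD4 T cells that had or lacked the AMPK gene Prkaa1. The set holds 47 genes, named by symbol, of the 23282 genes listed in each library. It was divided into 28 genes that act from G1 into S phase, 16 that act in G2 and mitosis, and 3 Cdk inhibitors. Ccna2, whose cyclin acts in both S phase and G2, was counted with the G2/M genes. All 47 symbols were found in all 6 libraries, and 45 passed the filter on low values.

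The WT group was Prkaa1 fl/fl without Cre (CD4Cre-neg) and the AMPK KO group was Prkaa1 fl/fl with CD4Cre, so both carried the floxed allele, and deletion was driven by the CD4 promoter in T cells. Each group had 3 samples of C57BL/6 mice, which the study's methods describe as females of 6 to 8 weeks. Cells from spleen and lymph nodes rested for 1 h before they were stimulated with anti-CD3 and anti-CD28, each at 2 µg/mL. The labels give the stimulation as 24 h and the methods as 6 h, and there is no unstimulated library among the 6. The labels do not say whether 1 sample is 1 mouse, so p-values measure the spread between these samples only.

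In a resting T cell most of these transcripts are scarce. After activation, D cyclins with Cdk4/6 and cyclin E with Cdk2 release E2F factors, which switch on the genes for licensing, the helicase, the sliding clamp and nucleotide synthesis, and the mitotic genes follow later under the DREAM complex, B-Myb and FoxM1. Inhibitors such as p27, the product of Cdkn1b, hold the kinases back in quiescence.

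Values are log2(CPM + 1), where CPM is the read count scaled to a fixed library total after the authors' TMM normalization. Each QuantSeq read marks the 3′ end of a transcript, so CPM was not divided by length. Depth, as recovered from the values, ran from 9575096 to 10168121 reads for WT libraries and from 10515155 to 11185360 for AMPK KO libraries. The ribosomal RNA precursor Rn45s took 20.7% to 24.9% of the WT reads and 8.48% to 10.8% of the AMPK KO reads. Prkaa1 had log2 values of 4.64, 5.24 and 4.86 in WT and 4.08, 4.72 and 4.67 in AMPK KO, which overlapped (limma, adjusted p = 0.357), so this transcript gives no check of the genotype. All 6 libraries held Y-linked reads, with Ddx3y at 346 to 368 CPM in WT and 121 to 155 CPM in AMPK KO, although the methods describe females. Xist was at 0.904 to 3.47 CPM in WT and 186 to 242 CPM in AMPK KO, so each AMPK KO library held Xist and Y-linked reads together. Whether samples were pooled from mice of both sexes is not stated in the labels. The sex make-up of the samples moved with the genotype, and sex and genotype cannot be told apart here. Cd4 was present in every library, at a mean of 103 CPM in WT and 80.1 CPM in AMPK KO. Of the CD8 T cell markers, Cd8a had a mean of 102 CPM in WT and 129 CPM in AMPK KO, and Cd8b1 176 and 228 CPM. Their sum was 231 to 305 CPM in WT and 321 to 376 CPM in AMPK KO, without overlap, and neither gene passed the threshold (limma, adjusted p = 0.217 and 0.197). Markers of other cells were present too. Of the 11 tested macrophage and monocyte markers, 11 were higher in AMPK KO and 7 of them passed the threshold. Among all tested genes, 51.2% were higher in AMPK KO and 5.65% passed. Fcgr1, among the 11, passed the filter on low values only through AMPK KO. The macrophage and monocyte markers summed to 453 to 514 CPM in WT and 866 to 1585 CPM in AMPK KO. In such bulk libraries, fewer cells of a type and less RNA per cell cannot be told apart.

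Across the set, 2 of 45 tested genes differed between AMPK KO and WT. Pcna, which encodes the sliding clamp of the replicative polymerases, was 1.67-fold higher in AMPK KO, and Mcm7, a subunit of the replicative helicase, was 1.60-fold higher in WT, both on the scale of CPM + 1. That is 4.44% of the tested members, and 637 of all 11279 tested genes (5.65%) passed the same threshold (limma, two-sided, adjusted p under 0.05). At an unadjusted p under 0.05 there were 11 members (24.4%), beside 21.3% of all tested genes. The groups did not overlap in 9 of the 45 members, beside 25.6% of all tested genes, and 2 of these 9, Pcna and Cdk6, were higher in AMPK KO. Cdk6, which is also 1 of the 11, passed the filter on low values only through AMPK KO. The count of members was therefore close to the background by each measure.

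Neither class lay on 1 side of 0. Of the 28 G1/S genes, 15 had a higher mean in AMPK KO and 13 a lower one, with a median log2 fold change of 0.11. Of the 14 tested G2/M genes, 7 were on each side, with a median of 0.01, while the median over all tested genes was 0.02. The single members ranged from −0.68 for Mki67 to 1.35 for Cdk6.

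**Figure D1:**
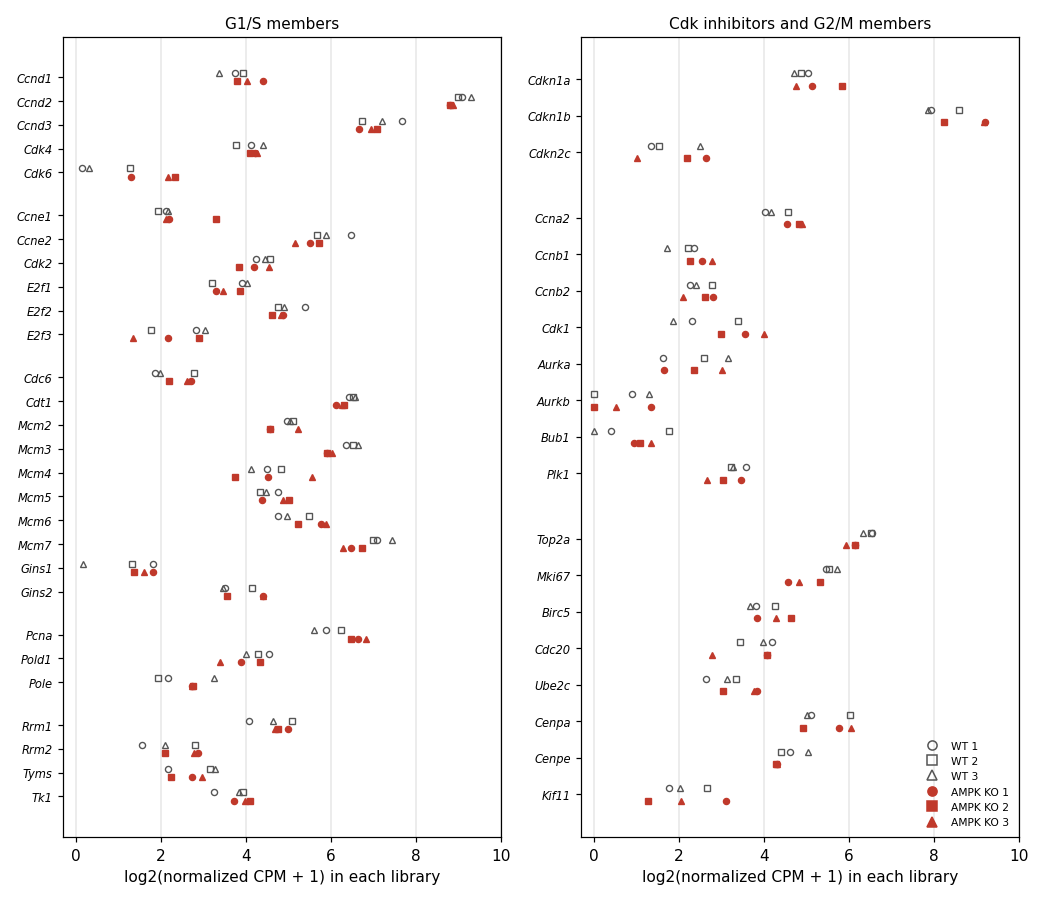
Value of each of the 47 genes in each of the 6 libraries, as log2(normalized CPM + 1), grouped by role (open symbols WT, filled symbols AMPK KO, one shape per replicate number). Levels spread from 0 for Aurkb and Bub1 to above 9 for Ccnd2 and Cdkn1b, and for most genes the open and filled symbols overlap.

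**Figure D2:**
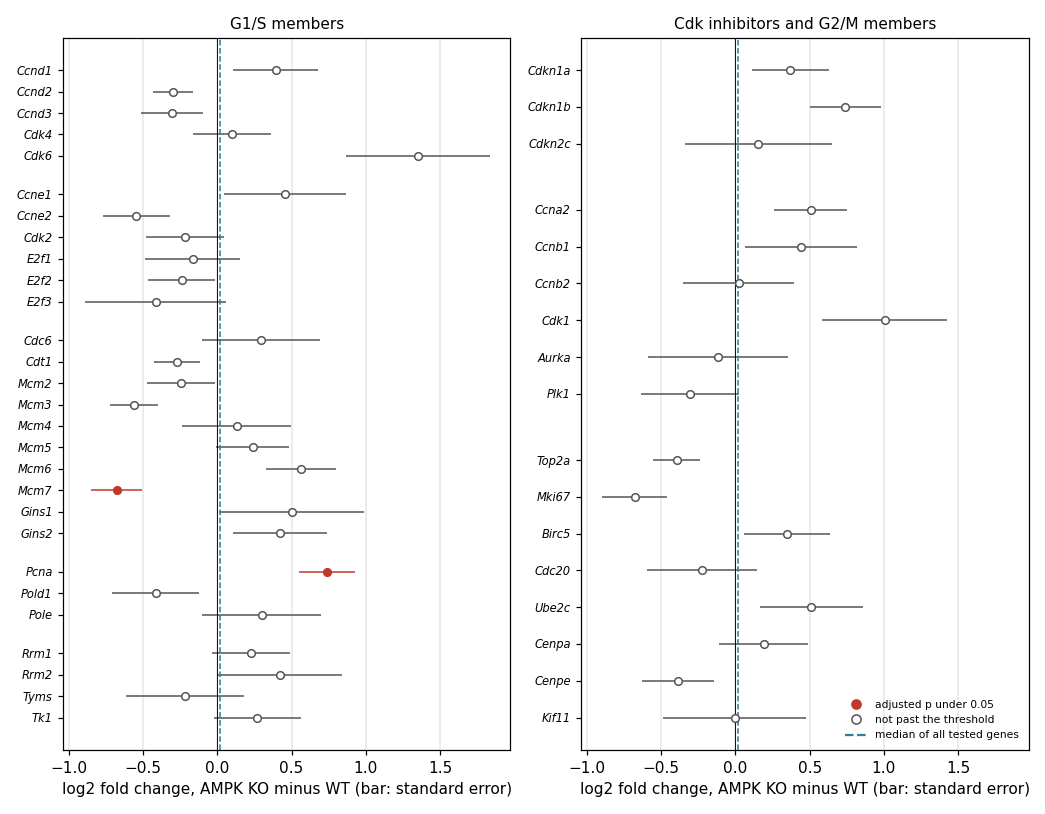
The log2 fold change (AMPK KO minus WT) of the 45 tested genes with its standard error from limma, and the median of all tested genes as a dashed line. Pcna and Mcm7, filled, are the 2 genes past the threshold, on opposite sides of 0.

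Promoters of G1/S and G2/M genes are usually told apart by E2F sites and CHR elements. Those shown are the G1/S genes with an E2F match and the G2/M gene with a CHR match that had the smallest p in limma. They were thus chosen by the outcome of the comparison. RefSeq windows (GRCm38.p6, 250 bases before to 50 after the start) were at hand for 38 of the 47 genes. E2F sites were searched as TTTCCCGC, TTTCGCGC, TTTGCCGC and TTTGGCGC on both strands. They stood in 10 of 21 G1/S genes (47.6%), 1 of 14 G2/M genes (7.14%, Cdk1) and 2.60% of all 27025 genes with a window. The CHR element, TTTGAA or TTCGAA on either strand, stood in 11 of 14 G2/M genes (78.6%), 4 of 21 G1/S genes (19.0%) and 21.7% of all genes. The CCAAT box, read on both strands, was in 13 of the 14 G2/M genes (92.9%), 12 of the 21 G1/S genes (57.1%) and 41.1% of all genes. No E2F word contains a CHR word or a CCAAT box, or the reverse. A match describes the letters only. The stretches below are on the minus strand, read 5′ to 3′, with E2F matches in capitals for the helicase genes and CHR matches in capitals for Mki67. Of Mcm7 and Mcm3 only 30 bases are shown, because annotated exons lie there, and of Mcm6 and Mki67 the 250 bases before the start.
Mcm7, chr5:138172030-138172059: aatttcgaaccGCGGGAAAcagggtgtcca
Mcm3, chr1:20820265-20820294: gGCGGGAAAacttgggaagtTTTGGCGCca
Mcm6, chr1:128359706-128359955: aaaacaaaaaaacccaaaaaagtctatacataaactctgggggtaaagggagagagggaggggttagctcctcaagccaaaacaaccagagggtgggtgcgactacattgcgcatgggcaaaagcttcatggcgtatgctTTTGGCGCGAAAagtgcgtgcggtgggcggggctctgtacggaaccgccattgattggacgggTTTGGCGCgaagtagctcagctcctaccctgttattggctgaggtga
Mki67, chr7:135716380-135716629: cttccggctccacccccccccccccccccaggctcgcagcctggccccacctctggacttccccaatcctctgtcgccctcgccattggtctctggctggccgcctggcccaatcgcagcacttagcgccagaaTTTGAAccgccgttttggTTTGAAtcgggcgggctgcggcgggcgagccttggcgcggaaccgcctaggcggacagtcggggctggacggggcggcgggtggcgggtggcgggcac
Mcm7 had 2 matches in this window, of which 1 is shown. It begins 165 bases before a RefSeq start, in the first exon of another Mcm7 transcript and of Ap4m1, which runs the opposite way. Those of Mcm3 begin 20 and 39 bases after its start. Mcm6 had 3 matches, beginning 110, 106 and 47 bases before its start, of which the first and second overlap. Mki67 had CHR letters beginning 116 and 98 bases before its start. The window of Pcna held neither the E2F nor the CHR letters searched, and held a CCAAT box.

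The licensing and helicase genes were read first, since the helicase is a ring of 6 subunits, Mcm2 to Mcm7, that is loaded on origins in G1 by Cdc6 and Cdt1. Mcm7 (chromosome 5, 138164583 to 138172422) had log2 values of 7.09, 6.998 and 7.44 in WT and 6.47, 6.74 and 6.29 in AMPK KO. All 3 WT libraries lay above all 3 AMPK KO libraries. Its log2 fold change was −0.68 (standard error 0.17, limma, adjusted p = 0.0339), from means of 145 ± 24.6 and 90.2 ± 14.6 CPM (SD, n = 3 each), and the exact two-sided permutation test gave 0.1, the smallest p that 3 against 3 allow. The call did not hold without WT replicate 1 (adjusted p = 0.122), WT replicate 3 (0.195), AMPK KO replicate 1 (0.134) or AMPK KO replicate 3 (0.0896). It also ended without the filter (0.0809) and with the replicate number as a block (0.156, or 0.0770 with a correction for GC content as well). With voom on the recovered reads, without TMM factors, it ended too (0.0809). Over all 17 alternatives the log2 fold change ran from −0.80 to −0.54. An exon of Cops6, on the opposite strand, lies in the last 500 bases of Mcm7. Whether counting used the strand is not given in the sources used here, so reads of both cannot be told apart, and Cops6 itself had 17.2 to 24.4 CPM and a log2 fold change of −0.03.

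Mcm3 had log2 values of 6.36, 6.53 and 6.64 in WT and 5.91, 5.91 and 6.02 in AMPK KO. Its groups did not overlap either, and its log2 fold change was −0.56 (standard error 0.16, limma, adjusted p = 0.0545). Mcm6 had 4.75, 5.48 and 4.97 in WT and 5.77, 5.24 and 5.88 in AMPK KO. AMPK KO replicate 2 lay below WT replicate 2, and its log2 fold change, 0.56 with a standard error of 0.24, was not past the threshold (limma, adjusted p = 0.183). Mcm3 passed the threshold in 5 of the 17 alternatives tried, with an adjusted p of 0.0229 to 0.233 over all of them. Mcm3 and Mcm7 kept a negative and Mcm6 a positive log2 fold change under each of these 17.

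The other 3 subunits had smaller differences, with log2 fold changes of −0.24 for Mcm2, 0.13 for Mcm4 and 0.24 for Mcm5. Mcm4 varied most, from 134 to 549 reads within the AMPK KO group. Summed over the 6 subunits, the WT libraries held 319, 342 and 372 CPM and the AMPK KO libraries 265, 269 and 310 CPM. Within a library, Mcm6 lay below Mcm7 by 2.34, 1.52 and 2.47 log2 units in WT and by 0.70, 1.5 and 0.41 in AMPK KO. Mcm6 and Mcm7 thus stood closer together in AMPK KO replicates 1 and 3 than in any WT library. In this distance AMPK KO replicate 2 was close to WT replicate 2. Mcm6 lay below Mcm3 by 1.61, 1.05 and 1.67 in WT and by 0.14, 0.68 and 0.14 in AMPK KO. In both pairs the fold changes have opposite signs, so a smaller distance in AMPK KO follows from the choice of pair.

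Cdt1, the licensing factor, had log2 values of 6.42, 6.52 and 6.58 in WT and 6.12, 6.31 and 6.27 in AMPK KO. The groups did not overlap, but the log2 fold change of −0.27 (standard error 0.16) was not past the threshold (limma, adjusted p = 0.339). Cdc6, the loader, had 24 to 65 reads per library and a log2 fold change of 0.29. The GINS subunits, which join the helicase when origins fire, had log2 fold changes of 0.50 for Gins1 and 0.42 for Gins2. Gins1 was the lowest gene of this role, with 23, 15 and 1 reads in WT and 30, 17 and 24 in AMPK KO.

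**Figure D3:**
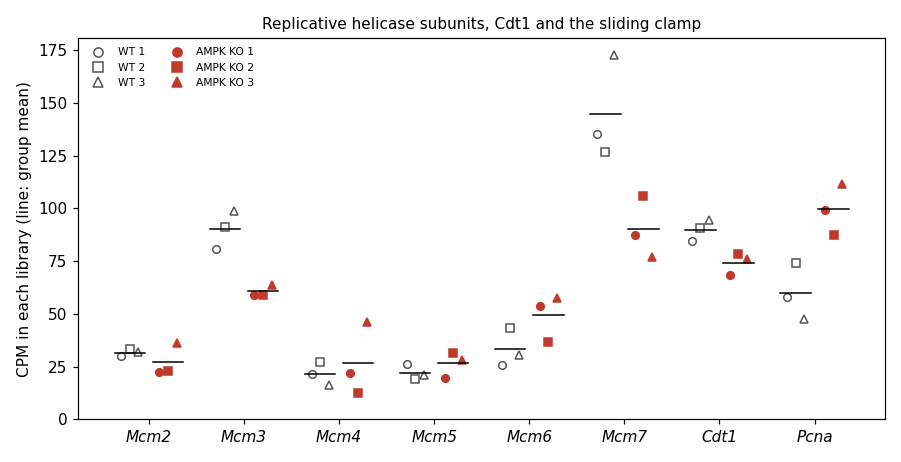
CPM of the 6 helicase subunits, Cdt1 and Pcna in each library, with the group mean as a line. For Mcm3, Mcm7 and Cdt1 all WT libraries lie above all AMPK KO libraries, and for Pcna all AMPK KO libraries lie above all WT libraries.

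Pcna (chromosome 2, 132249162 to 132253314) was the single member past the threshold that was higher in AMPK KO. It had log2 values of 5.88, 6.23 and 5.61 in WT and 6.65, 6.47 and 6.82 in AMPK KO. Every AMPK KO library lay above every WT library, and WT replicate 2 was the nearest. The log2 fold change was 0.74 (standard error 0.19, limma, adjusted p = 0.0332), from 60.0 ± 13.3 to 99.5 ± 12.1 CPM (SD, n = 3 each). The annotation (GENCODE M21) places no other gene over Pcna. Without WT replicate 1 the adjusted p was 0.146, without WT replicate 3 it was 0.179, without AMPK KO replicate 1 it was 0.128 and without AMPK KO replicate 3 it was 0.0857, each past 0.05. Pcna passed in 8 of the 17 alternatives. Scaling to the reads outside Rn45s also ended the call, with a log2 fold change of 0.67 and an adjusted p of 0.0555 in limma, as did testing without the filter (0.0809), the replicate block (0.154, or 0.0790 with the GC correction) and a correction for transcript length (0.0855). Macrophage markers, CD8 markers, Xist and the Rn45s share moved with the groups in the same libraries, and their part in the values of Pcna and Mcm7 was not tested.

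Neither catalytic polymerase subunit passed the threshold. Pold1 had log2 values of 4.55, 4.29 and 4.01 in WT and 3.88, 4.32 and 3.39 in AMPK KO, and a log2 fold change of −0.42 (limma, adjusted p = 0.448). Pole had 28 to 75 reads per library, with 2.16, 1.93 and 3.25 in WT and 2.73, 2.76 and 2.73 in AMPK KO on the log2 scale. Set against Mcm7 in the same library, Pcna lay 1.21, 0.77 and 1.83 log2 units below it in WT. Pcna lay 0.27 below Mcm7 in AMPK KO replicate 2, and 0.18 and 0.53 above it in AMPK KO replicates 1 and 3. Their fold changes have opposite signs, so this shift follows from the choice of pair.

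Nucleotide synthesis genes supply dNTPs for replication, and none of the 4 passed the threshold. Rrm1, the large subunit of ribonucleotide reductase, was the most abundant, with log2 values of 4.07, 5.08 and 4.63 in WT and 5.002, 4.75 and 4.69 in AMPK KO. Rrm2, the small subunit that rises in S phase, was the lowest, with 18, 60 and 29 reads in WT and 75, 35 and 69 in AMPK KO. WT replicate 2 was the highest WT library for both, and the groups overlapped. Tk1, thymidine kinase, had a log2 fold change of 0.27 and Tyms, thymidylate synthase, of −0.22. These genes together made up 29.7 to 60.9 CPM in WT and 49.1 to 55.3 CPM in AMPK KO.

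Among the D cyclins and their kinases, Ccnd2 was the most abundant gene of the whole set and supplied 37.1% of the G1/S sum. It had log2 values of 9.08, 8.999 and 9.29 in WT and 8.80, 8.80 and 8.88 in AMPK KO. The groups did not overlap, the means were 559 ± 60.1 and 452 ± 14.6 CPM (SD, n = 3 each), and the log2 fold change of −0.30 (standard error 0.14) was not past the threshold (limma, adjusted p = 0.215). Ccnd1 had a log2 fold change of 0.39 and Cdk4 one of 0.10, and both overlapped between groups. Cdk6 had 1, 14 and 2 reads in WT and 17, 43 and 41 in AMPK KO. Its fitted log2 fold change was the largest of all members, 1.35 (standard error 0.49, limma, adjusted p = 0.120), and ran from 1.14 without WT replicate 1 to 2.19 with a pseudocount of 0.25 and 2.90 with voom. Its mean log2 in WT, 0.569, lay under the filter of 1, so Cdk6 was tested only through its level in AMPK KO and gives no support for a difference.

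Ccnd3 needs a limit of its own. Its log2 values were 7.68, 6.72 and 7.20 in WT and 6.66, 7.08 and 6.95 in AMPK KO. Bysl, whose exon overlaps the 3′ end of Ccnd3 on the opposite strand, had 7.72, 6.90 and 7.26 in WT and 6.85, 7.26 and 7.08 in AMPK KO. The genes followed each other in all 6 libraries to within 0.20 log2 units, and their reads cannot be told apart here. The log2 fold change of Ccnd3, −0.31 (limma, adjusted p = 0.433), is therefore uncertain as a value of this cyclin. Exons of other genes also lie in the last 500 bases of Ccnd1 (LTO1), Cdk4 (Tspan31), Ccne2 (Ints8), Gins2 (Gse1), Ccna2 (Exosc9) and Cdc20 (Elovl1), and none of these 6 members passed the threshold.

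Of cyclin E, Cdk2 and the E2f factors, 5 of 6 had a lower mean in AMPK KO and none passed the threshold. Ccne2 was the most abundant, at log2 values of 6.46, 5.66 and 5.89 in WT and 5.51, 5.72 and 5.15 in AMPK KO. AMPK KO replicate 2 overlapped the lowest WT library, and the log2 fold change was −0.55 (standard error 0.23, limma, adjusted p = 0.178). Ccne1, the other E cyclin, was the lowest of this role and had log2 values of 2.13, 1.93 and 2.17 in WT and 2.18, 3.29 and 2.13 in AMPK KO. AMPK KO replicate 2, with 94 reads, stood alone above 5 libraries of 28 to 42 reads. The activating factors E2f1, E2f2 and E2f3 had log2 fold changes of −0.17, −0.24 and −0.42, and Cdk2 had −0.22. With single libraries left out, E2f1 ran from −0.42 to −0.01, E2f2 from −0.37 to −0.05, E2f3 from −0.81 to −0.02 and Cdk2 from −0.40 to −0.04.

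The Cdk inhibitors were led by Cdkn1b, with 91.4% of their sum. It had log2 values of 7.94, 8.60 and 7.87 in WT and 9.22, 8.24 and 9.18 in AMPK KO. AMPK KO replicates 1 and 3 lay above all WT libraries, whereas AMPK KO replicate 2 lay below WT replicate 2. The means were 288 ± 86.1 and 491 ± 164 CPM (SD, n = 3 each) and the log2 fold change was 0.74 (standard error 0.24, limma, adjusted p = 0.0875). Without AMPK KO replicate 2 it was 1.06 (adjusted p = 0.000751), and without WT replicate 2 it was 0.97 (adjusted p = 0.0297). Without any 1 of the other 4 libraries it was 0.57 to 0.64, with an adjusted p of 0.177 to 0.334. Cdkn1a, or p21, had a log2 fold change of 0.37 and Cdkn2c, or p18, one of 0.16, with 12 to 62 reads per library for Cdkn2c, the lowest of the 3. Its log2 values were 1.33, 1.54 and 2.49 in WT and 2.64, 2.18 and 1.01 in AMPK KO.

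The mitotic cyclins and kinases were low. Ccna2, the most abundant, had log2 values of 4.02, 4.57 and 4.17 in WT and 4.54, 4.83 and 4.91 in AMPK KO, and WT replicate 2 overlapped the AMPK KO group (log2 fold change 0.51, limma, adjusted p = 0.247). Cdk1, the kinase of mitotic entry, had 2.30, 3.38 and 1.85 in WT and 3.56, 2.98 and 3.997 in AMPK KO, from 23 to 178 reads. Its log2 fold change, 1.01 with a standard error of 0.42, was not past the threshold (limma, adjusted p = 0.185), and AMPK KO replicate 2 lay below WT replicate 2. Ccnb1 and Ccnb2, its B cyclins, had log2 fold changes of 0.44 and 0.02, and Plk1 and Aurka, kinases of the spindle and centrosome, had −0.31 and −0.12. Aurkb and Bub1, kinases of the centromere and the spindle checkpoint, were under the filter and were not tested. Aurkb had 8, 0 and 13 reads in WT and 18, 0 and 5 in AMPK KO, and Bub1 had 3, 24 and 0 in WT and 11, 12 and 18 in AMPK KO. A count of 0 allows up to 0.30 CPM in WT replicate 2, 0.339 CPM in WT replicate 3 and 0.279 CPM in AMPK KO replicate 2, for counting error only.

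Chromosome, spindle and exit genes were higher in level. Top2a, the topoisomerase that untangles replicated DNA, had log2 values of 6.54, 6.51 and 6.34 in WT and 6.14, 6.14 and 5.93 in AMPK KO. Its groups did not overlap, and its log2 fold change was −0.40 (standard error 0.16, limma, adjusted p = 0.167). Mki67, the coat protein of mitotic chromosomes widely read as a proliferation marker, had 5.47, 5.54 and 5.73 in WT and 4.56, 5.31 and 4.83 in AMPK KO. It had the most negative log2 fold change of the set, −0.68 (standard error 0.22, limma, adjusted p = 0.0864), with no overlap, and without AMPK KO replicate 2 the value was −0.89 (adjusted p = 0.0108). That was the 1 of 17 alternatives in which Mki67 passed, and without any 1 of the other 5 libraries it had −0.73 to −0.51, with an adjusted p of 0.113 to 0.338. Cenpe, the kinetochore motor, was also apart between groups, at a log2 fold change of −0.39 (adjusted p = 0.382).

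The rest of this role had values on both sides of 0. Ube2c and Cdc20, which work with the anaphase-promoting complex, had log2 fold changes of 0.51 and −0.23. Birc5, or survivin, had 0.35 and Cenpa, the centromeric histone, 0.19. Kif11, the spindle motor and the lowest of the role, had log2 values of 1.76, 2.66 and 2.02 in WT and 3.12, 1.26 and 2.04 in AMPK KO, with means that differed by −0.01. Within each library, Cdk1 lay below Mki67 by 3.18, 2.16 and 3.88 log2 units in WT and by 1.00, 2.33 and 0.83 in AMPK KO. This distance overlapped between the groups through AMPK KO replicate 2 and WT replicate 2. Ccna2 lay below Top2a by 2.52, 1.94 and 2.17 in WT and by 1.59, 1.31 and 1.03 in AMPK KO, without overlap. Both pairs join fold changes of opposite sign, so smaller distances in AMPK KO follow from the choice of pair.

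Summed per library, the 28 G1/S genes held 1476, 1368 and 1535 CPM in WT and 1224, 1252 and 1320 CPM in AMPK KO. The groups did not overlap, and the mean of the log2 sums differed by −0.20 (AMPK KO minus WT), or −0.15 without Ccnd2 and −0.27 when scaled to the reads outside Rn45s. The median of the single G1/S genes, 0.11, had the opposite sign, but it was −0.19 among genes with a mean log2 of at least 3 and −0.02 without WT replicate 2. Ccnd2, Ccnd3 and Mcm7 lead the sum, with means of 559, 152 and 145 CPM in WT and 452, 119 and 90.2 CPM in AMPK KO. The mean sum was 1460 CPM in WT and 1265 CPM in AMPK KO, so its fall lay largely in these genes. Ccnd3 and Mcm7 carry the limit on overlapping genes given above. The 16 G2/M genes held 272, 320 and 277 CPM in WT and 272, 260 and 279 CPM in AMPK KO, which overlapped. The Cdk inhibitors held 278, 418 and 263 CPM in WT and 633, 362 and 605 CPM in AMPK KO, and AMPK KO replicate 2 lay inside the WT range. T cell markers summed to 2451 to 2652 CPM in WT and 1993 to 2517 CPM in AMPK KO, with 3 of 10 past the threshold lower and 1 higher in AMPK KO. Markers of neutrophils and their precursors summed to 794 to 903 CPM in WT and 516 to 759 CPM in AMPK KO. Of their 9 tested genes, 7 had a lower mean in AMPK KO, with Mpo and Prtn3 past the filter only through WT. The granule genes Ngp (73.5 to 24.5 CPM, limma, adjusted p = 0.00188) and Ltf (11.3 to 3.15 CPM, 0.0285), 2 of the 7, passed the threshold. Elane, Mpo and Prtn3 had means of 2.40 CPM or less in either group. Plasma cell markers summed to 97.6 to 115 CPM in WT and 418 to 464 CPM in AMPK KO, which was mostly Jchain (59.0 to 363 CPM), the 1 of 4 tested that passed the threshold. NK cell markers summed to 58.1 to 82.9 CPM in WT and 109 to 118 CPM in AMPK KO, with 5 of 5 tested higher in AMPK KO and 1, Klrk1, past the threshold. Erythroid markers, nearly all globin, summed to 3988 to 4595 CPM in WT and 2887 to 5567 CPM in AMPK KO, and none passed. The methods name microbeads or a cell sorter for the isolation, which should remove such cells, with purity checked by flow cytometry after magnetic sorting. Their part in the sums was not tested. For the marker counts, the shares over all tested genes were 51.2% with a higher mean in AMPK KO and 5.65% past the threshold.

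**Figure D4:**
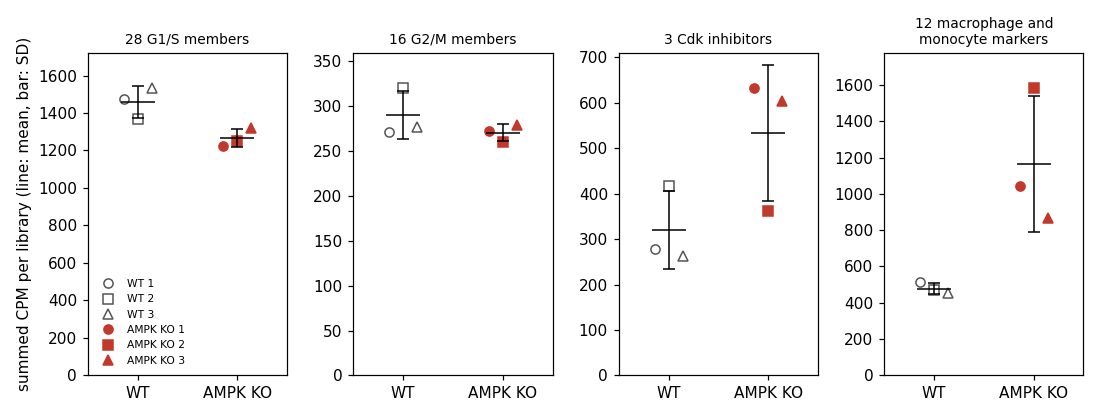
Summed CPM of the G1/S genes, the G2/M genes, the Cdk inhibitors and the macrophage and monocyte markers in each library, with the mean and SD per group (n = 3). The G1/S sum is 1368 to 1535 CPM in WT and 1224 to 1320 CPM in AMPK KO, the G2/M sums overlap, and the macrophage sum is higher in all AMPK KO libraries.

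For 13 of the 45 tested members (28.9%), WT replicate 2 was the highest WT library and AMPK KO replicate 2 the lowest AMPK KO library, as for Cdkn1b, Mcm6, Gins2, Cdk1 and Cenpa, and the share over all tested genes was 19.9%. The difference between these shares was not tested. Without AMPK KO replicate 2, 6 of 45 members passed the threshold (13.3%), beside 11.0% of all tested genes. These were Pcna, Mcm6 and Cdkn1b, which were higher in AMPK KO, and Mcm3, Mcm7 and Mki67, which were lower. Without WT replicate 2 there were 3 (6.67%), Pcna, Mcm7 and Cdkn1b, beside 6.45% of all tested genes. Leaving out any of the other 4 libraries left 0 of 45 members past the threshold in limma, with 4 to 7 at an unadjusted p under 0.05, beside 1.13% to 4.11% of all tested genes past the threshold.

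Wider lists of the same pathways were tested in the same fit. Of 44 tested other S phase genes, 3 passed the threshold (6.82%), beside 5.65% of all tested genes, and all 3 were lower in AMPK KO. These were Casp8ap2, needed for histone transcription in S phase, with a log2 fold change of −0.80 (limma, adjusted p = 0.00751), Atad2, an E2F target, with −0.71 (0.0406), and Usp1, which removes ubiquitin from PCNA, with −0.64 (0.0221). Nasp, a histone chaperone and the most abundant of the list at 319 CPM, had 0.25 (0.308). Of 40 tested other G2/M genes, 3 passed (7.5%). Kif23, a kinesin of cytokinesis, had log2 values of 6.03, 6.01 and 5.91 in WT and 4.79, 4.07 and 4.27 in AMPK KO, and fell by 1.61 on the log2 scale (standard error 0.22, limma, adjusted p = 0.000719). G2e3 fell by 1.02 (0.0143), and Tubb4b, a tubulin, rose by 1.10 (0.0016). Smc4, a condensin subunit, was the most abundant at 1584 CPM and had −0.40 (0.157).

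No E2F, pocket protein or DREAM gene passed the threshold among 14 tested by limma, with 1 at an unadjusted p under 0.05, and none with voom. The gene at that level, E2f4, a repressive factor of quiescence, had a log2 fold change of 1.68 (adjusted p = 0.0515) from 19 to 337 reads. Rbl2, or p130, the most abundant of this list at 72.2 CPM, had −0.24. Of 19 tested other inhibitors and checkpoint genes, 3 passed (15.8%). Btg1 and Btg2, antiproliferative genes, fell by 0.59 and 0.62 (adjusted p = 0.0268 and 0.0143), and Cdkn2a, which encodes p16 and p19Arf, had 9, 14 and 0 reads in WT and 65, 50 and 37 in AMPK KO (1.66, adjusted p = 0.0461). Its mean log2 in WT, 0.749, lay under the filter of 1, so Cdkn2a was tested only through its level in AMPK KO and its count among the 3 is no support for a difference. Of 16 tested p53 targets, 2 passed (12.5%). Pmaip1, which encodes Noxa, rose by 0.85 (adjusted p = 0.0273) and Btg2, a member of both lists, fell. Over these 5 lists together, 10 of 131 tested genes passed the threshold (7.63%), beside 5.65% of all tested genes. With single libraries left out, the count was 2 to 16 of 131 (1.53% to 12.2%), beside 1.13% to 11.0% of all tested genes.

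The level of the set bears on the 2 stated stimulation times. The median member lay at 16.4 CPM over the 6 libraries, beside 18.7 CPM for all tested genes. For G1/S genes the median was 17.9 CPM, with 3 of 28 above 100 CPM. For G2/M genes it was 8.79 CPM, with none above 100 CPM and 9 of 16 below 10 CPM. Cdkn1b, which is usually high in resting T cells, lay at 390 CPM, above 97.1% of the tested genes. Early-response genes of T cell activation, such as Egr1 and Fos, had a median of 233 CPM, and 14 of 16 lay above 100 CPM. The sustained activation genes had a median of 77.9 CPM. Among them, Cd69 was at 241 CPM in WT and 210 CPM in AMPK KO, Il2ra at 24.6 and 21.1 CPM, Myc at 12.9 and 6.93 CPM, and Il2 had only 3 to 8 reads in each library.

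Of the 16 early-response genes, 13 lay higher in AMPK KO by their group means, the median of the 16 log2 fold changes was 0.33, and 5 passed the threshold (31.2%). Over all tested genes, 51.2% lay higher and 5.65% passed. WT replicate 2 was the highest WT library and AMPK KO replicate 2 the lowest AMPK KO library for 8 of the 16, beside 19.9% of all tested genes. Fosb, Ier3 and Dusp1 rose by 0.70, 0.98 and 0.84 on the log2 scale, and Egr1 and Egr3 fell by 0.76 and 1.34. Of the 12 tested sustained genes, 6 lay higher in AMPK KO by their group means, the median of the 12 was 0.03, and the 3 past the threshold, Cd44, Tnfrsf9 and Tfrc, rose by 1.17, 0.72 and 0.71 (limma, adjusted p = 0.0286 or less for these 8 genes). The sum of the early-response genes was 4815 to 5805 CPM in WT and 4720 to 6698 CPM in AMPK KO. Apart from Aurkb and Bub1, all members had reads in all 6 libraries. The medians of both classes lay below that of the early-response genes, although single members such as Mcm7 (118 CPM) lay above the lowest of those genes, Ier3 (52.8 CPM). No library of another time and no unstimulated library was at hand, and the libraries held markers of other cells, so these levels do not assign the cells to 6 h or to 24 h.

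**Figure D5:**
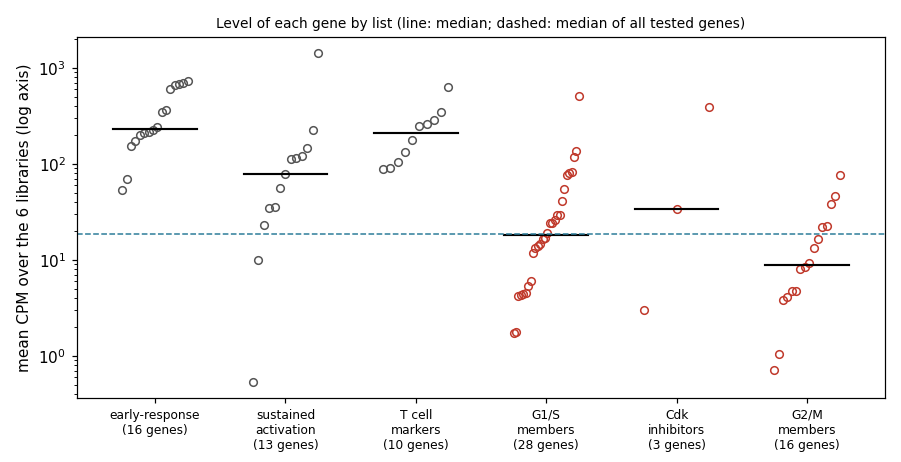
Mean CPM over the 6 libraries of each gene in 6 lists, on a log axis, with the median of each list as a line and the median of all tested genes (18.7 CPM) dashed. The G2/M median of 8.79 CPM lies below that of the G1/S genes, 17.9 CPM, and both lie below the early-response median of 233 CPM.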

How the data were processed

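The authors deposited 1 table per library of log2 values, made as log2 of the TMM- and CPM-normalized value plus 1, for 23282 genes listed by symbol. The submitters' processing notes name Bowtie2, bedtools and mm10, and their versions and the counting of strand are not given in the sources used here. Whole reads were recovered from the steps of the values (100% within 0.1 of a whole number up to 100 reads).

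Groups came from the labels. Genes with a mean log2 of at least 1 (11279) were tested with lmFit and eBayes (trend) of limma 3.58.1 in R 4.3.3, genotype only, two-sided, with Benjamini-Hochberg adjustment over all tested genes and a threshold of 0.05. Medians and sums over lists are descriptions without a test. The members, roles and lists were chosen with earlier results of these data known. Values in each library are given for members past the threshold, the 3 most positive and 3 most negative fold changes, the most and least abundant of each role, and a few others chosen after their values were seen. In the wider lists, genes past the threshold and the most abundant are named. Positions are from GENCODE M21 (GRCm38) and promoters from RefSeq (GRCm38.p6). Alternatives changed the normalization, filter, pseudocount, replicate block, libraries, spread estimate and test. Corrections for GC content or transcript length were added after seeing the data. The voom fit scaled the recovered reads to their library totals, Rn45s included, without TMM factors. Python 3.11.15 with pandas 2.3.3, numpy 2.4.6 and matplotlib 3.10.9 was used.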

Additional observations from a re-analysis of the deposited data

How the results depend on the processing

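The 2 members past the threshold, Pcna and Mcm7, were the same 2 under quantile normalization, a pseudocount of 0.25 and a robust spread. Under scaling to the reads outside Rn45s and under the length correction there were also 2, but Mcm3 (adjusted p = 0.0365 and 0.0385) took the place of Pcna (0.0555 and 0.0855). With a mean of at least 3 there were 3, with Mcm3 added. The count was 1, Pcna, with voom on the recovered reads, 4 with the GC correction, and 0 without the filter, with the replicate block and with the replicate block and the GC correction together, where limma gave 10, 7 and 7 members at an unadjusted p under 0.05. Leaving out single libraries gave 0 to 6 members. Of the E2F, pocket protein and DREAM genes, 1 passed without WT replicate 2, without AMPK KO replicate 2 and with the GC correction, and 0 in all other fits. Over all genes, the count of 637 was 308 without the filter, 102 with the replicate block, 236 with the block and the GC correction, and 127 to 1246 with single libraries left out. Scaling outside Rn45s moved the share of the called genes that was higher in AMPK KO from 45.1% to 32.5%. The voom fit, which left out the TMM factors, moved it to 71.4% with a shift of the median of all genes to 0.16. Over the wider lists, the count of 10 was 2 with the replicate block, 3 with the block and the GC correction, 6 with voom, and 2 to 16 with single libraries left out. Whether replicate numbers pair the samples is not stated. Same-numbered libraries had deviations from their group means that correlated at −0.23, −0.53 and −0.31 over 6143 genes. Those of unlike numbers correlated at −0.261 to 0.456. Deviations within a group sum to 0, so these values depend on each other and cannot exclude pairing.

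The median log2 fold change of the G1/S genes was −0.19 with a mean of at least 3 and 0.27 with voom, whose own shift is given above, and −0.02 to 0.11 with single libraries left out. That of the G2/M genes was −0.11 under quantile normalization, 0.12 with voom and −0.08 to 0.21 with single libraries left out. The difference of the mean log2 sums of the G2/M genes was −0.10, and 0.02 without Top2a. The fit with a mean of at least 3 tested 32 members. Of the 45 tested members, 36 kept the sign of their fold change under every alternative that tested them. Among the others, Ccnb2 was at −0.09 under quantile normalization, −0.04 when scaled outside Rn45s, −0.05 with the GC correction, −0.05 with the block and the GC correction, and −0.14 with the length correction. Kif11 was at 0.08 with voom and 0.02 with the length correction, Aurka at 0.01 with voom and Cdk4 at −0.01 with the length correction. With single libraries left out, the fold change was −0.54 to 0.23 for Aurka, −0.13 to 0.22 for Ccnb2, −0.44 to 0.20 for Cdc20, −0.07 to 0.25 for Cdk4, −0.19 to 0.62 for Cdkn2c, −0.05 to 0.52 for Cenpa, −0.49 to 0.43 for Kif11, −0.35 to 0.56 for Mcm4 and −0.04 to 0.47 for Rrm1. The cause of these changes was not tested.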
